A study of Mus musculus with 3 samples.

Results

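Cxcl3-high alveolar macrophages are defined here as lung macrophages that held at least 5 Cxcl3 transcripts, counted as unique molecular identifiers (UMIs), after an instillation of bacterial lipopolysaccharide (LPS). They numbered 2029 cells, of which 846 came from the library of mice given LPS with Reg3g and 1183 from the library of mice given LPS. They were chosen among 3982 gated cells, among 23549 cells of these libraries that passed the quality filter, and among 33703 deposited barcodes of all libraries. A gated cell showed 500 genes or more and 1000 UMIs or more, with no more than 15% of them mitochondrial, and a UMI for at least 4 of 9 alveolar macrophage genes (Atp6v0d2, Car4, Cidec, Krt79, Lpl, Marco, Mrc1, Plet1 and Slc39a2). Cells with 3 or more of 7 cell cycle genes, with more than 1 summed UMI of Fstl1, Inhba, Palld and Creb3l1, or with 5 or more summed UMIs of Tnf, Cxcl1 and Egr2 were kept out of the gate. The Cxcl3 count chose the cells, so every difference between Cxcl3-high cells and the other gated cells is a description and carries no test.

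Alveolar macrophages are the resident phagocytes of the air spaces. They clear surfactant lipids and inhaled particles, and they answer LPS through Tlr4 with the transcription factor NF-kB and a burst of chemokines. Cxcl3, like Cxcl1 and Cxcl2, is a secreted ligand of the receptor Cxcr2 and draws neutrophils into inflamed tissue. The other genes that were put forward as markers of these cells have unlike roles. Ccl9 is a macrophage chemokine that binds Ccr1, and Ch25h makes 25-hydroxycholesterol from cholesterol. Cyp26b1 breaks down retinoic acid, Car4 is a membrane-anchored carbonic anhydrase, and Ear6 is a secreted ribonuclease of the eosinophil-associated family.

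RNA was measured in single cells of wild type C57BL/6 mouse lung, 24 h after 50 µL was placed in the trachea. The mice had received LPS (4 mg/kg) with Reg3g, a C-type lectin secreted by epithelia, at 6 µg; LPS (4 mg/kg) alone; or phosphate-buffered saline (PBS). Sorted cells were live, positive for CD45, F4/80 and CD11b or CD11c, and negative for the neutrophil antigen Ly6G, and each group was 1 library of cells pooled from 3 mice. No difference between libraries therefore has a replicate check, no test between groups was made, and the 95% intervals below cover counting error only. The labels give neither the age nor the sex of the mice.

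The sequences just upstream of Cxcl3 and of the markers that were higher beside it show what lies at the genes the description turns on. The 250 bases before the RefSeq start of each gene (build GRCm38.p6, read 5′ to 3′ on the gene's strand) are shown in lower case, with every match to the NF-kB motif, on either strand, in capitals. The motif was GGG, any 2 bases and TTTCC. Cxcl3 lies on chromosome 5, where the window was chr5:90785851-90786100 on the plus strand, and Cxcl2 is its neighbour at chr5:90903649-90903898 on the plus strand. The windows of Ccl9 (chr11:83578637-83578886), Cyp26b1 (chr6:84593811-84594060) and Ch25h (chr19:34475149-34475398) were on the minus strand.
Cxcl3: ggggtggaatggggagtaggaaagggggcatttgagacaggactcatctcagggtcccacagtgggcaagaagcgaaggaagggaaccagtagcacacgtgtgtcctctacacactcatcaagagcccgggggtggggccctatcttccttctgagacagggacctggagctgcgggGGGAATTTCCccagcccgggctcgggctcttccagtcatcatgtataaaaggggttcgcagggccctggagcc
Cxcl2: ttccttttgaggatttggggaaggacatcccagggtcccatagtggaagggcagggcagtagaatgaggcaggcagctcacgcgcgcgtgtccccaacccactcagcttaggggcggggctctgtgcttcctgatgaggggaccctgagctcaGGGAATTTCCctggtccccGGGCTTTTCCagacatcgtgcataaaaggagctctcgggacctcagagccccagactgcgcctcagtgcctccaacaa
Ccl9: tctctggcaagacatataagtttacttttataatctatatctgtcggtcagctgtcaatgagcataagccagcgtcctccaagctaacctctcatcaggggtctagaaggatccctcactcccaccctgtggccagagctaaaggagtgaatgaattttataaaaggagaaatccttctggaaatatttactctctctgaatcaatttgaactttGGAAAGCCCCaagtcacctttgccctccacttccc
Cyp26b1: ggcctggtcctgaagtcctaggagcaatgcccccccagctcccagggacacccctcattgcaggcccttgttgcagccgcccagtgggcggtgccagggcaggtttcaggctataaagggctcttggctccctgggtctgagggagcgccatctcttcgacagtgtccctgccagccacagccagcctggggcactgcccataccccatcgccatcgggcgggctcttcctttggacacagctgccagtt
Ch25h: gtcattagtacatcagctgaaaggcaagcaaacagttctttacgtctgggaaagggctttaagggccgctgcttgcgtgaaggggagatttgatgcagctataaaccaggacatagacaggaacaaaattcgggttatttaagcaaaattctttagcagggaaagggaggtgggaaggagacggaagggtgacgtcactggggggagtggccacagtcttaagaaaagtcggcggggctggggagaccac

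The motif was found once before Cxcl3, at bases -73 to -64 from the start, and once before Ccl9 on the opposite strand, at -35 to -26. The neighbour Cxcl2 had a pair of matches, at -97 to -88 and at -78 to -69. None of these letters was found in the windows of Cyp26b1, Ch25h, Car4 or Ear6. Of 32851 RefSeq promoter windows of the same length, 464 (1.41%) held a match. The same windows were searched for TGANTCA (6.75% of all windows), TTGCNNNAA (8.29%), TGACGTNA (2.52%), TATAAA (12.4%) and the interferon-stimulated response element, GAAA, any 2 bases and GAAA (2.98%). Ch25h held a pair of TTGCNNNAA matches and a TGACGTNA match that reads on both strands, and Ccl9 held a TGANTCA match. TATAAA was found 30 to 25 bases before Cxcl3, 139 to 134 bases before Cyp26b1 and 151 to 146 bases before Ch25h. Before Ccl9 it was found at -224 to -219 and, as overlapping matches on opposite strands, at -94 to -89 and -92 to -87. These are matches of letters, and binding was not measured.

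Deposited barcodes numbered 10213 with Reg3g, 15015 with LPS and 8475 with PBS, and their UMIs summed to 60942042, 70474636 and 52354207 in that order. Cxcl3-high cells had a median of 7450 UMIs with Reg3g and 6357 with LPS. The other gated cells, with 0 to 4 Cxcl3 UMIs, were shallower, at 5424 and 4107 in the same order, and the 3199 PBS cells that passed the same gates had 7482. Between 28 and 37 barcodes were shared by each pair of libraries, and none was shared by Cxcl3-high cells.

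The cells carried genes of alveolar macrophages, as the gate required. All 9 gate genes were detected, and their summed level was 9573 CPM (UMIs per 1000000 UMIs of the same cells) with Reg3g and 9835 CPM with LPS, against 286 and 426 CPM in monocyte-gated cells of the same libraries. Monocyte-gated cells are those with at least 3 of 9 monocyte markers and fewer than 4 alveolar gate genes. Both gates used the 9 alveolar genes, so the gap between these sums was set in advance and is no evidence of identity. The 9 monocyte markers summed to 701 and 773 CPM in Cxcl3-high cells, led by Hp, and to 929 and 1135 CPM in the other gated cells. At least 3 of these markers had a UMI in 106 (12.5%) and 171 (14.5%) of the Cxcl3-high cells. Dendritic cell markers summed to 13.3 and 38.8 CPM with 1 of 9, Cd209a, at 0 in both libraries. Lymphoid markers summed to 9.77 and 20.1 CPM with 2 of 12 at 0, Ms4a1 and Iglc2 with Reg3g and Cd79a and Ms4a1 with LPS. Neutrophil markers, led by S100a8 and with Ly6g at 0 with Reg3g, summed to 341 and 248.8 CPM, against 2630 and 1178 CPM in monocyte-gated cells. How far RNA of these other cells entered the values of Cxcl3-high cells was not tested.

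Cxcl3-high cells were common after LPS and nearly missing with PBS. They made up 52.5% (95% Clopper-Pearson interval 50.1 to 55.0) of gated cells with Reg3g and 49.9% (47.8 to 51.9) with LPS, against 2 of 3199 gated cells (0.0625%, 0.00757 to 0.226) with PBS. As a share of all alveolar cells they were 18.4% (17.3 to 19.5) and 19.9% (18.9 to 20.9), and as a share of all cells past the quality filter 8.75% and 8.52%. The low share of alveolar cells reflects the Fstl1 and Tnf gates as well as Cxcl3. Before those gates, 69.0% of alveolar cells with Reg3g and 69.1% with LPS held at least 5 Cxcl3 UMIs. Lymphoid cells, which should lack the gene, give a background, at a lower depth. At least 5 Cxcl3 UMIs were held by 1 of 109 lymphoid cells with Reg3g (median depth 2391 UMIs) and by 0 of 154 with LPS (2074 UMIs). The Clopper-Pearson upper bounds were 5.01% with Reg3g and 2.37% with LPS. Monocyte-gated cells, which may themselves express Cxcl3, passed in 1.20% and 1.25% of cells (4341 and 3582 UMIs), with up to 50 and 53 UMIs in a cell.

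**Figure D1:**
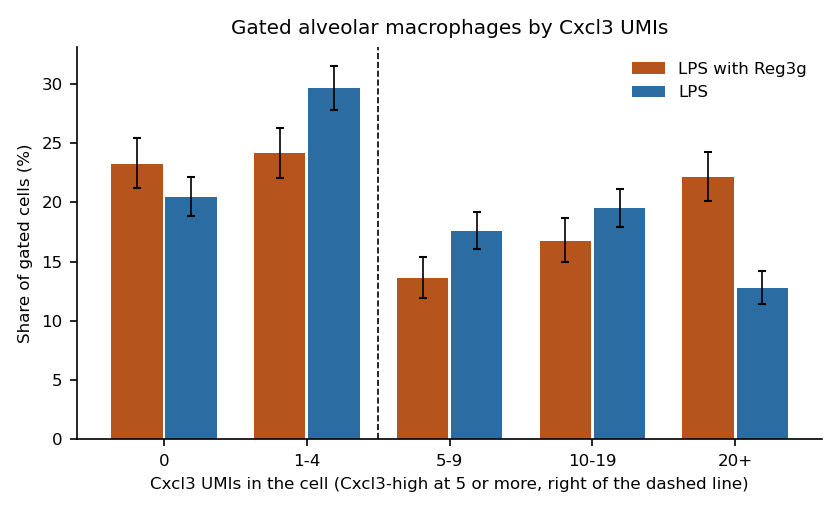
Share of gated alveolar macrophages (%, y axis) by the number of Cxcl3 UMIs in the cell (x axis), for LPS with Reg3g (orange) and LPS (blue), with 95% Clopper-Pearson intervals as error bars. Cxcl3-high cells lie right of the dashed line, and the cells with 20 or more UMIs made up 22.2% of gated cells with Reg3g and 12.8% with LPS.

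Cxcl3 was spread widely among the cells, and more so with Reg3g. The median was 16 Cxcl3 UMIs per Cxcl3-high cell with Reg3g (range 5 to 119) and 12 with LPS (range 5 to 74). At least 20 UMIs were held by 42.2% (38.8 to 45.6) of Cxcl3-high cells with Reg3g and by 25.6% (23.1 to 28.2) with LPS, and at least 50 by 7.92% and 1.10%. At the lower end the order turned, since 23.3% (21.2 to 25.4) of gated cells with Reg3g and 20.4% (18.8 to 22.1) with LPS held no Cxcl3 UMI. Just inside the threshold, 51 cells with Reg3g and 96 with LPS had 5 UMIs, and just outside it 79 and 136 had 4. Cyp26b1 was at 96.6 and 131 CPM in the cells with 5 UMIs and at 64.9 and 103 CPM in those with 4, and Ch25h at 84.1 and 75.9 CPM and at 97.4 and 58.1 CPM.

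Depth differed between the libraries, and the order of the shares depended on how it was handled. After each gated cell was thinned to 2000 UMIs, at least 1 Cxcl3 UMI was found in 65.7% (63.2 to 68.0) of 1538 cells with Reg3g and 70.0% (68.0 to 71.9) of 2175 cells with LPS. At least 5 UMIs remained in 30.2% (27.9 to 32.5) and 24.7% (22.9 to 26.6) of them, and at least 10 in 11.1% and 6.11%. A threshold of 5 Cxcl3 UMIs per 10000 UMIs of the cell gave 60.3% of gated cells with Reg3g and 65.0% with LPS. Among cells of 4000 to 12000 UMIs the shares were 56.9% and 61.3%. The larger weight of very high cells with Reg3g was present with and without thinning, and the share past the threshold itself had no fixed order.

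Among the chemokines, Cxcl3 stood at 2859 CPM (2817 to 2900, exact Poisson) in Cxcl3-high cells with Reg3g and 2375 CPM (2341 to 2410) with LPS. It stood at 188 and 296 CPM in the other gated cells and at 3.38 CPM (2.69 to 4.19) in PBS gated cells, and these are the values the rule used. In the Fstl1-positive cells that the gate left out, Cxcl3 was higher still, at 3679 and 2653 CPM. The neighbour gene Cxcl2 was at 3517 and 4834 CPM in Cxcl3-high cells, at 2231 and 2936 CPM in the other gated cells and at 378 CPM with PBS. Cxcl2 was thus higher in Cxcl3-high cells of both libraries (log2 ratios 0.66 and 0.72) but lower with Reg3g than with LPS (-0.46, 95% interval -0.48 to -0.44). Cxcl3 stood higher with Reg3g in Cxcl3-high cells (0.27) and lower with Reg3g in the other gated cells. The rule split these cells by Cxcl3, so its order between the libraries cannot be set against that of Cxcl2.

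Ccl9, the Ccr1 ligand, was at 1706 CPM (1674 to 1738) in Cxcl3-high cells with Reg3g and 1605 CPM (1577 to 1634) with LPS. The other gated cells had 934 and 1012 CPM, and PBS gated cells 28.4 CPM (26.4 to 30.6). The difference from PBS was therefore far larger than that from the other gated cells, for which the log2 ratios were 0.87 (0.81 to 0.92) with Reg3g and 0.67 (0.62 to 0.71) with LPS. Ccl9 lies at chr11:83572919-83578636 on the minus strand in GRCm38, in the annotation GENCODE M21. After thinning to 2000 UMIs it had a UMI in 92.3% of Cxcl3-high cells with Reg3g and 90.7% with LPS, against 62.2% and 68.0% of the other gated cells.

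Cyp26b1, the retinoic acid hydroxylase (chr6:84571414-84593908, minus strand), was at 134 CPM (126 to 144) with Reg3g and 160 CPM (152 to 170) with LPS. It stood at 38.7 and 63.7 CPM in the other gated cells and at 0.285 CPM (0.114 to 0.587), or 7 UMIs, in all PBS gated cells. Its log2 ratio to the other gated cells was 1.80 (1.56 to 2.04) with Reg3g and 1.33 (1.16 to 1.51) with LPS. Thinned, it was found in 20.1% (17.5 to 23.0) and 22.1% (19.8 to 24.6) of Cxcl3-high cells and in 6.30% and 9.86% of the other gated cells. In monocyte-gated cells it was found in 0.624% and 0.633%. Among 7 measured genes of retinoic acid handling, Cyp26b1 alone was at least 2-fold higher in both libraries, as were 0.263% of all 7237 genes. The retinol-forming reductase Dhrs3 went the other way, at 78.1 and 79.7 CPM in Cxcl3-high cells, against 133 and 130 CPM in the other gated cells and 272 CPM with PBS.

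Ch25h, which makes 25-hydroxycholesterol (chr19:34473778-34475164, minus strand), was at 161 CPM (151 to 171) with Reg3g and 114 CPM (107 to 122) with LPS. The other gated cells had 60.7 and 43.9 CPM, and PBS gated cells 16.3 CPM (14.7 to 17.9). Its log2 ratio to the other gated cells was 1.40 (1.21 to 1.60) with Reg3g and 1.38 (1.17 to 1.59) with LPS. Of 19 measured genes of oxysterol and cholesterol handling, Ch25h was at least 2-fold higher in both libraries, and Mylip and Apoe were at least 2-fold lower. With Reg3g, LPS or both, Apoe in Cxcl3-high cells was under 10% of its level in monocyte-gated or lymphoid cells. The source of its RNA was not tested. The shares of all 7237 genes past 2-fold in both libraries were 0.263% upward and 0.981% downward. Mylip, which marks the LDL receptor for breakdown, was at 7.91 and 9.80 CPM, against 26.4 and 22.4 CPM in the other gated cells and 86.8 CPM with PBS. The cholesterol exporter Abca1 was at 12.9 and 14.8 CPM, against 26.1 and 29.3 CPM in the other gated cells and 64.6 CPM with PBS. Gpr183, the receptor for an oxysterol made from 25-hydroxycholesterol, had 0.620 and 1.57 CPM in Cxcl3-high cells.

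Like Ccl9, Cyp26b1 and Ch25h, the markers Car4 and Ear6 separated LPS from PBS more than they separated Cxcl3-high cells from their neighbours. Car4 (chr11:84957786-84966044, plus strand), which is also a gene of the alveolar gate, was at 2453 and 2457 CPM in Cxcl3-high cells, 1703 and 1717 CPM in the other gated cells and 445 CPM with PBS. Ear6 (chr14:51853699-51854643, plus strand) was at 79.1 CPM (72.4 to 86.2) and 82.0 CPM (75.7 to 88.7) in Cxcl3-high cells, against 72.4 CPM (64.6 to 80.8) and 71.8 CPM (64.8 to 79.3) in the other gated cells. The log2 ratios of Ear6 were 0.13 (-0.08 to 0.33) with Reg3g and 0.19 (0.01 to 0.38) with LPS. Its intervals in the sets overlapped, so among gated cells it set Cxcl3-high cells apart little or not at all. Against 8.42 CPM in PBS gated cells, its log2 ratio in LPS Cxcl3-high cells was 3.28. Other genes of its family went down, with Ear1 at 201 and 160 CPM, against 406 and 352 CPM in the other gated cells and 1111 CPM with PBS. Genes of this family are close copies, as are Cxcl1, Cxcl2 and Cxcl3 to a lesser degree, and no source used here says how reads that fit several copies were counted, so these levels are uncertain.

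The markers did not come together in every cell. After thinning to 2000 UMIs, 3 or more of the other 5 markers had a UMI in 43.5% of Cxcl3-high cells with Reg3g and 41.3% with LPS, against 18.9% and 20.8% of the other gated cells. All 5 were found in 3 of 840 and 7 of 1161 thinned Cxcl3-high cells. Without thinning the first pair of shares was 79.3% and 76.2%, against 43.2% and 37.8%. The combination was more frequent still in the Fstl1-positive cells that the gate left out, at 52.4% and 47.0% thinned and 87.9% and 81.7% unthinned. Car4, 1 of the 5, is also a gate gene, so its detection was partly set by the rule. Unthinned, Car4 had a UMI in 99.1% and 98.6% of Cxcl3-high cells and Ccl9 in 99.3% and 99.5%. In the other gated cells Car4 had one in 87.0% and 88.2% and Ccl9 in 77.4% and 79.3%.

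Ordered by Cxcl3, the gated cells formed a gradient. Cyp26b1 stood at 23.2, 52.8, 117, 113 and 156 CPM in cells of 0, 1 to 4, 5 to 9, 10 to 19 and 20 or more Cxcl3 UMIs with Reg3g, and at 29.1, 87.3, 127, 155 and 201 CPM with LPS. Ch25h went over the same steps from 45.9 to 190 CPM with Reg3g and from 29.6 to 129 CPM with LPS. Ccl9 went from 629 CPM at 0 UMIs to 1590 CPM at 5 to 9 and 1779 CPM at 20 or more with Reg3g, and from 645 to 1563 and 1609 CPM with LPS. Ear6 stayed between 66.1 and 95.7 CPM with Reg3g and between 68.8 and 86.8 CPM with LPS. Krt19, a keratin that alveolar macrophages share with epithelia, went from 124 to 25.2 CPM with Reg3g and from 118 to 22.8 CPM with LPS. Cells with more Cxcl3 UMIs were also deeper, with medians of 5125 and 8458 UMIs in the lowest and highest step with Reg3g and 4149 and 7405 with LPS.

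**Figure D2:**
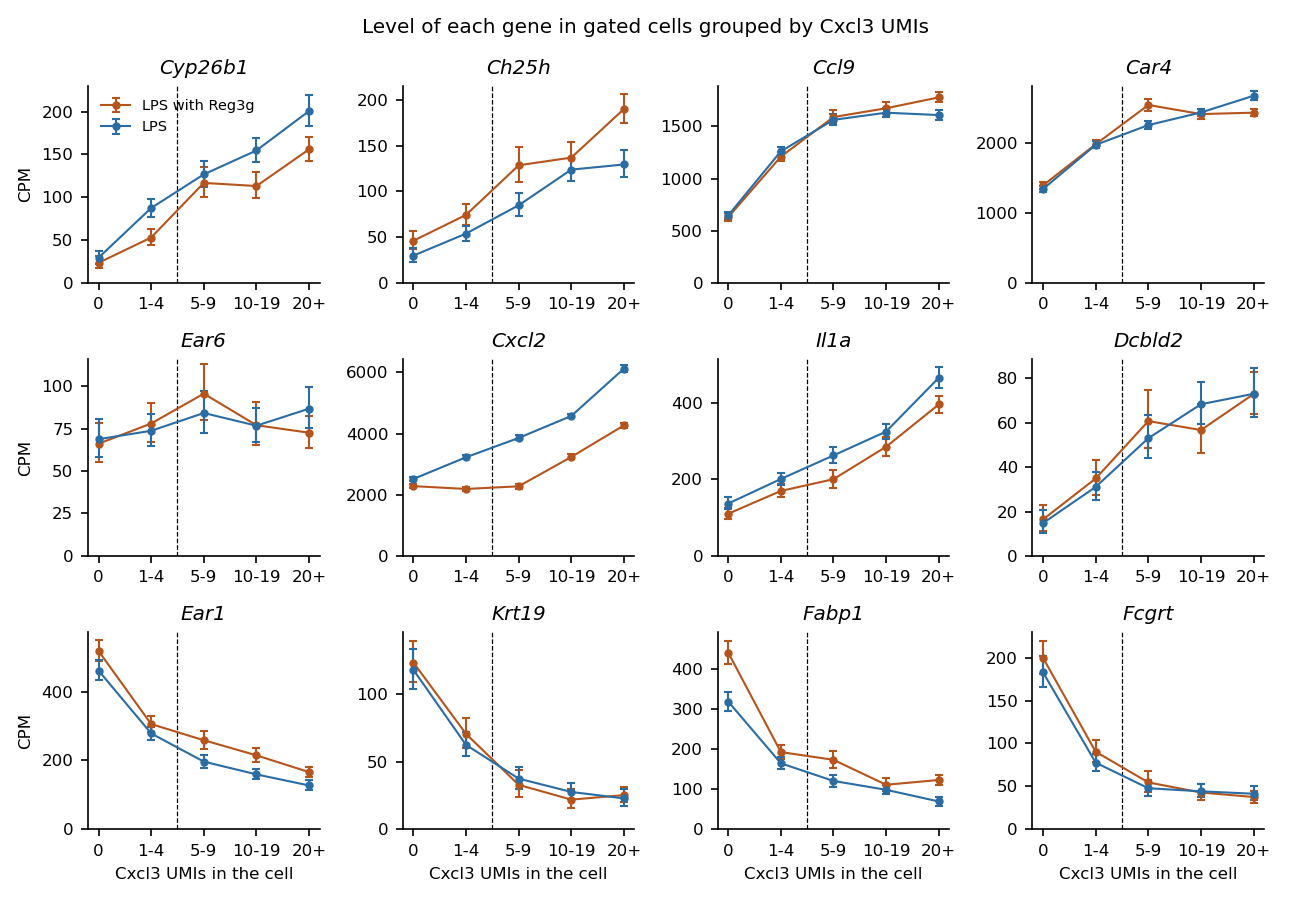
Level of 12 genes (CPM, y axis) in gated cells grouped by Cxcl3 UMIs (x axis) for LPS with Reg3g (orange) and LPS (blue), with 95% exact Poisson intervals, and Cxcl3-high cells right of the dashed line. Cyp26b1, Ch25h, Cxcl2, Il1a and Dcbld2 were highest at 20 or more UMIs, Ear6 varied little, and Ear1, Krt19, Fabp1 and Fcgrt were highest in cells without Cxcl3.

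Across all genes, few differed by 2-fold between Cxcl3-high cells and the other gated cells. Of 7237 genes with at least 10 CPM in 1 of the sets of each library, 19 (0.263%) were at least 2-fold higher and 71 (0.981%) at least 2-fold lower in both libraries. This contrast was fixed by the rule, so the counts describe it only. The median log2 ratio of all genes was -0.09 with Reg3g and -0.08 with LPS, and setting it to 0 gave 27 higher and 55 lower genes.

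The higher genes included signals and enzymes. Il1a, the cytokine interleukin-1 alpha, was at 320 and 349 CPM in Cxcl3-high cells, against 141 and 175 CPM in the other gated cells and 20.2 CPM with PBS. Ptges, which makes prostaglandin E2, was at 121 and 132 CPM, against 62.3 and 62.2 CPM in the other gated cells and 5.04 CPM with PBS. Slc7a2, a carrier of arginine and other cationic amino acids, was at 1351 and 1381 CPM, against 704 and 698 CPM in the other gated cells and 349 CPM with PBS. These were differences of about the same size in both libraries, with log2 ratios of 1.18 and 1.00 for Il1a, 0.95 and 1.08 for Ptges and 0.94 and 0.98 for Slc7a2. Pf4, the CXC chemokine platelet factor 4, was at 104 and 87.1 CPM, against 44.7 and 44.1 CPM in the other gated cells and 13.9 CPM with PBS.

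The protease inhibitors Serpina3f and Serpina3g were higher as well. Serpina3f had 66.5 and 75.1 CPM in Cxcl3-high cells, against 26.4 and 37.8 CPM in the other gated cells and no UMI with PBS. Serpina3g had 195 and 275 CPM, against 87.8 and 143 CPM in the other gated cells and 0.407 CPM with PBS, and the copies of this gene cluster are too alike for their levels to be certain. Fmnl2, a formin that builds actin filaments, had 68.8 and 83.2 CPM, against 27.5 and 35.0 CPM, and the transmembrane protein Dcbld2 had 65.4 and 65.3 CPM, against 26.1 and 24.5 CPM. Each of these genes was also at or under 2 CPM with PBS.

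Some genes of the resting alveolar macrophage were lower. Of 19 measured identity genes outside the gate, 4 were at least 2-fold lower in both libraries: Siglecf, Krt19, Fabp1 and Ear1. None was at least 2-fold higher, and 15 had a ratio below 1 in both libraries. Of all 7237 genes, 0.981% were at least 2-fold lower and 49.8% below 1 in both libraries. The median log2 ratio of the identity genes was -0.25 with Reg3g and -0.29 with LPS. All 9 measured mitochondrially encoded genes were also below 1 in both libraries, with medians of -0.40 and -0.34 and none past 2-fold, and their part in these ratios was not tested. Siglecf, the lectin used to identify these cells by flow cytometry, was at 11.5 and 6.79 CPM, against 33.9 and 20.2 CPM in the other gated cells and 123 CPM with PBS. Fabp1, a fatty acid carrier, was at 130 and 95.5 CPM, against 310 and 226 CPM in the other gated cells and 1263 CPM with PBS. The transcription factor Pparg, on which this cell type depends, differed little, at 78.0 and 61.7 CPM, against 92.3 and 73.3 CPM in the other gated cells and 152 CPM with PBS.

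Other lower genes had varied roles. Serpinb1a, an inhibitor of neutrophil proteases, was at 28.1 and 20.4 CPM in Cxcl3-high cells, against 103 and 92.0 CPM in the other gated cells and 217 CPM with PBS. Fcgrt, the neonatal Fc receptor that recycles antibody, was at 42.8 and 44.3 CPM, against 142 and 120 CPM in the other gated cells and 318 CPM with PBS. Lsp1, an actin-binding protein of leukocytes, was at 73.0 and 96.4 CPM, against 223 and 272 CPM, and was also high in monocyte-gated cells, at 487 and 476.5 CPM. Pltp, which transfers phospholipids, was at 27.9 and 28.7 CPM, against 85.2 and 97.6 CPM. Niban1 had log2 ratios of -1.79 and -1.56, the stress cytokine Gdf15 of -2.30 and -1.33, and the neuropeptide gene Gal of -1.56 and -1.27. For each of these genes the other gated cells stood between Cxcl3-high cells and PBS gated cells, except Pltp with LPS, where they stood above the 91.6 CPM of PBS cells.

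Cxcl13, a chemokine that draws B cells, had log2 ratios of -4.23 and -1.95, with 9.61 and 20.2 CPM in Cxcl3-high cells, against 180 and 77.9 CPM in the other gated cells. That difference came from a handful of cells, since 1 cell with Reg3g held 736 of the 785 UMIs of the other gated cells, and 1 with LPS held 301 of 417. Without the 5 richest cells of each set, an alternative added after the data were seen, Cxcl13 was at 8.42 and 7.10 CPM in Cxcl3-high cells and 9.68 and 8.82 CPM in the other gated cells. The log2 ratios were then -0.20 (-0.81 to 0.42) and -0.31 (-0.90 to 0.28), both with an interval that includes 0.

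**Figure D3:**
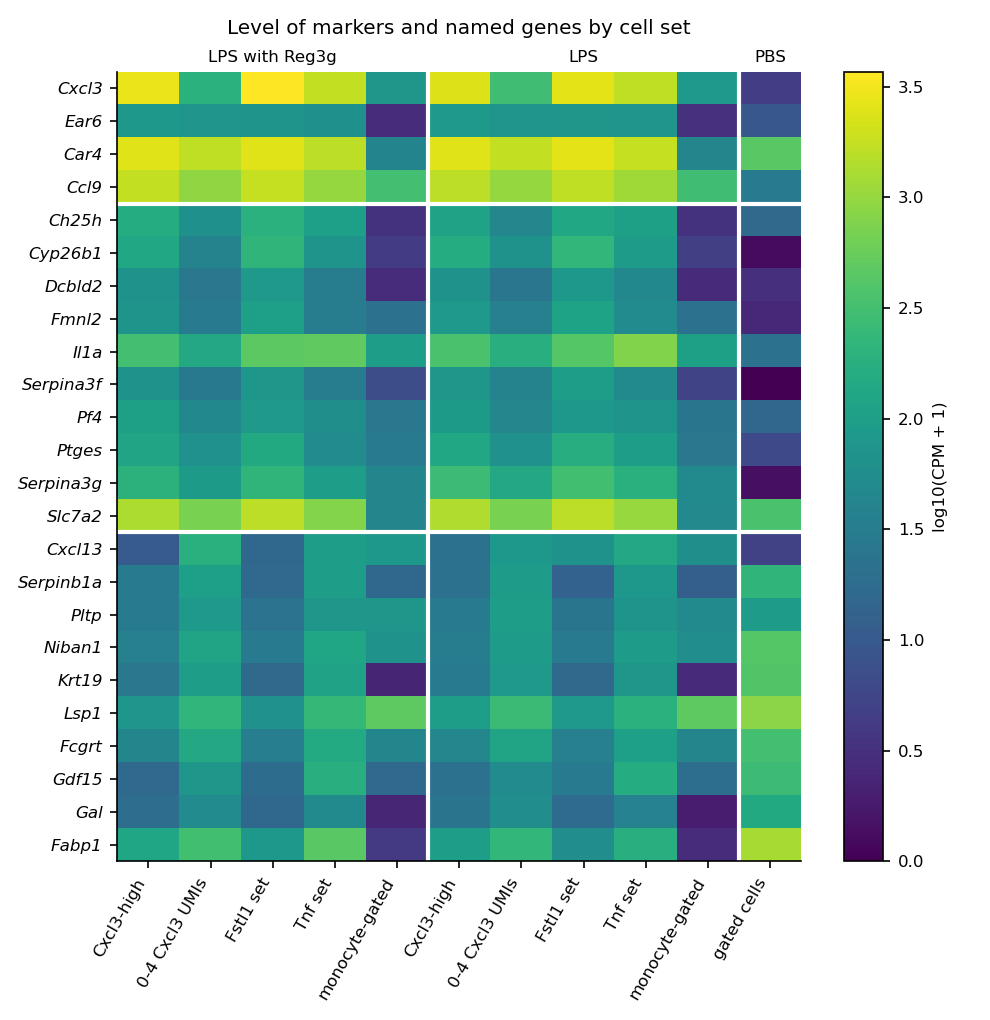
Level of the markers and of the genes named for Cxcl3-high against other gated cells (rows, log10 of CPM + 1 as colour) in each cell set (columns) of LPS with Reg3g, LPS and PBS, 1 library each. Cxcl3-high and Fstl1 set columns look alike, and Ear6 and Car4 differ little between Cxcl3-high and other gated cells of LPS lungs. The lower block is brighter in PBS gated cells than in Cxcl3-high and other gated cells. Exceptions are Cxcl13 and, against the other gated cells with LPS, Pltp.

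Among all 7237 genes, 49.8% had a ratio below 1 in both libraries and 26.5% a ratio above 1, which is the background for every list in this contrast. Of 12 measured prostanoid and leukotriene genes 9 were below 1 and 3 above in both libraries, and 1, Alox5, was at least 2-fold lower, with medians of -0.35 and -0.31 over the genes measured in each library. The 5-lipoxygenase gene Alox5 was at 8.68 and 8.88 CPM, against 33.5 and 25.6 CPM in the other gated cells and 129 CPM with PBS. Leukotriene C4 synthase, Ltc4s, was at 187 and 228 CPM, against 409 and 442 CPM in the other gated cells and 694 CPM with PBS. Ptges, on the prostaglandin side, went the other way. Of 22 immediate early and handling genes, 20 were below 1 in both libraries and 2 of them, Egr1 and Fosb, at least 2-fold lower, with medians of -0.64 and -0.54. Egr1 was at 123 and 128 CPM, against 351 and 303 CPM in the other gated cells and 452 CPM with PBS. Egr2 was part of the gate, and the rule kept cells with much of it out of both sets.

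Genes induced by NF-kB and interferon were higher more often than lower, without passing 2-fold in both libraries. Among 25 measured genes induced by NF-kB or LPS, none differed 2-fold in both libraries, 14 were higher and 7 lower in both, and the medians were 0.22 and 0.02. Sod2, the mitochondrial superoxide dismutase, was at 1722 and 1760 CPM, against 1011 and 1017 CPM in the other gated cells and 133 CPM with PBS. Of 22 interferon response genes 13 were higher and 5 lower in both, and none 2-fold. Of 10 iron handling genes none differed 2-fold in both libraries, 7 had a ratio above 1 and 2 below 1 in both, and the medians were 0.45 and 0.38. Fth1, the ferritin heavy chain, had log2 ratios of 0.65 and 0.60 to the other gated cells and of 2.28 between LPS Cxcl3-high and PBS gated cells.

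Few genes separated Cxcl3-high cells from the Fstl1-positive cells that the gate had kept apart. Those had more than 1 summed UMI of Fstl1, Inhba, Palld and Creb3l1, and numbered 1474 with Reg3g and 2116 with LPS. Of 6957 genes, 0 (0%) were at least 2-fold higher in Cxcl3-high cells in both libraries and 6 (0.0862%) were lower. Of these 6, 4 were the gate genes themselves, and the others were Cxcl9, a ligand of Cxcr3, and Mir155hg, the host transcript of a microRNA. Cyp26b1 had 134 and 160 CPM in Cxcl3-high cells, against 215 and 227 CPM in Fstl1-positive cells, and Ccl9 had 1706 and 1605 CPM, against 1796 and 1669 CPM. At least 5 Cxcl3 UMIs were held by 91.3% and 86.3% of the Fstl1-positive cells.

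They differed more from cells with 5 or more summed UMIs of Tnf, Cxcl1 and Egr2, of which there were 887 with Reg3g and 719 with LPS. Of 7108 genes, 5 (0.0703%) were at least 2-fold higher in Cxcl3-high cells in both libraries and 95 (1.34%) at least 2-fold lower. The rule split these sets by Tnf, Cxcl1 and Egr2, and gate genes were not taken out, so the counts describe the contrast only. The higher 5 were Ccl5, Edn1, Ifit1, Il7r and Pmp22. Ccl5, a chemokine for T cells and monocytes, was at 1472 and 1353 CPM, against 601 and 617 CPM in the Tnf-positive cells. Cxcl2 was lower than in the Tnf-positive cells, with log2 ratios of -1.29 and -1.33. The inflammasome sensor Nlrp3 was at 72.3 and 111 CPM, against 240 and 422 CPM.

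Hmox1 and Ch25h stood higher, and Hspa1a and Hilpda lower, in Cxcl3-high cells of LPS with Reg3g than of LPS. Of 7201 genes, 55 (0.764%) were at least 1.5-fold higher and 81 (1.12%) at least 1.5-fold lower with Reg3g than with LPS alone, and 3 (0.0417%) and 14 (0.194%) were past 2-fold. The counts past 1.5-fold depended on the processing, with 299 higher and 297 lower after thinning to 2000 UMIs, and 26 higher and 66 lower without the Fstl1 and Tnf gates. Of 7558 genes in the other gated cells, 125 (1.65%) passed 1.5-fold upward and 146 (1.93%) downward. Reg3g itself was at the level of 1 UMI in each set, 0.155 CPM with Reg3g and 0.131 CPM with LPS. Its reported receptor gene Extl3 was at 15.0 and 13.3 CPM (log2 ratio 0.17, -0.24 to 0.59).

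Of the markers, Ch25h stood higher with Reg3g, with a log2 ratio of 0.49 (0.36 to 0.63) in Cxcl3-high cells and 0.47 (0.21 to 0.73) in the other gated cells. Cyp26b1 stood lower, at -0.26 (-0.38 to -0.13) and -0.72 (-0.99 to -0.45). The intervals of Ear6 and Car4 included 0, with log2 ratios of -0.05 (-0.22 to 0.12) and 0.00 (-0.03 to 0.03) in Cxcl3-high cells. Ccl9 was at 0.09 (0.05 to 0.13) in Cxcl3-high cells and at -0.12 (-0.17 to -0.06) in the other gated cells.

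Hmox1, the haem oxygenase that frees iron from haem, stood higher with Reg3g. It was at 1035 CPM with Reg3g and 615 CPM with LPS in Cxcl3-high cells, against 164 CPM in PBS gated cells, and its UMIs were concentrated, with 68.8% and 64.5% of them in the richest 10% of cells. The linker histone H1f2 was at 50.2 and 26.3 CPM, the class I-like molecule H2-M2 at 52.9 and 30.4 CPM, and the cold-shock protein Ybx3 at 188 and 117 CPM. For H2-M2, 5 cells held 24.0% of the UMIs with Reg3g and 12.9% with LPS, with up to 31 and 7 in a cell. Clec7a, the beta-glucan receptor dectin-1, was at 161 and 108 CPM, against 994 CPM with PBS. The arginine-recycling enzyme Ass1 was at 65.3 and 45.5 CPM, Marchf1 at 178 and 129 CPM, and the kinase Prkcd at 111 and 80.6 CPM. S100a9, a neutrophil alarmin, was at 142 and 92.9 CPM, and at 966 and 445 CPM in monocyte-gated cells, so it moved with those cells, and its source was not tested.

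The genes named as lower with Reg3g had varied roles. Hspa1a, an inducible Hsp70 chaperone, was at 54.7 CPM with Reg3g and 102 CPM with LPS in Cxcl3-high cells, against 228 CPM with PBS. Hilpda, which slows the breakdown of lipid droplets, was at 100 and 168 CPM, against 70.9 CPM with PBS. Nlrp3 was at 72.3 and 111 CPM, the adenosine receptor gene Adora2b at 38.1 and 56.4 CPM and the platelet-activating factor receptor gene Ptafr at 44.2 and 64.9 CPM. The transcription factors Fosb, Fos and Klf2 had log2 ratios of -0.65, -0.56 and -0.54, and the early gene Ier3 had -0.69. Of 22 measured immediate early and handling genes 21 were below 1 with Reg3g and 2 of them, Hspa1a and Fosb, past 1.5-fold, with a median of -0.30 beside 0.01 for all genes, of which 47.5% were below 1. Such genes also respond to the preparation of the cells, and a difference between preparations and one between treatments cannot be told apart with 1 library per group.

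**Figure D4:**
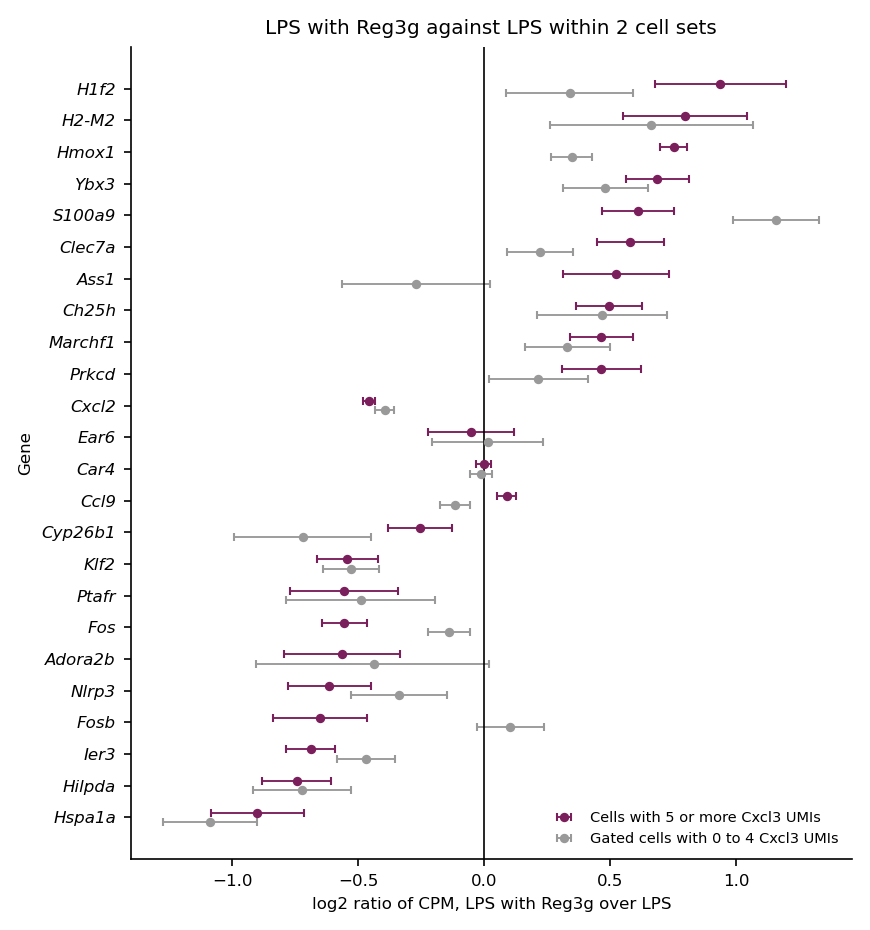
Log2 ratio of CPM, LPS with Reg3g over LPS (x axis), for the genes named in this contrast and for Cxcl2 and 4 markers (rows), in Cxcl3-high cells (purple) and in gated cells with 0 to 4 Cxcl3 UMIs (grey), with 95% exact conditional binomial intervals. Hmox1 was higher with Reg3g and Hspa1a and Hilpda lower in both cell sets, Ear6 and Car4 lay at 0, and Ass1, Fosb and Ccl9 lay on different sides of 0 in the 2 sets.

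Of all 7201 genes in Cxcl3-high cells, 52.5% had a ratio above 1 with Reg3g over LPS and 47.5% below 1, with a median of 0.01. Past 1.5-fold were 0.764% upward and 1.12% downward, which is the background for the lists that follow. Of 23 measured interferon response genes 1 was at least 1.5-fold lower with Reg3g and none higher, while 20 had a ratio below 1 and the median was -0.35. That gene was Rsad2, an antiviral radical enzyme, at 9.46 CPM with Reg3g and 17.5 CPM with LPS. Ifit3, which limits translation of viral RNA, was at 6.82 and 10.2 CPM, and the transcription factor gene Irf8 at 50.7 and 70.1 CPM. Among 25 genes induced by NF-kB or LPS, 20 stood lower, with a median of -0.16, and 1, Ier3, passed 1.5-fold. Saa3 and Acod1 in this group were at 684 and 124 CPM with Reg3g and 955 and 166 CPM with LPS. Alveolar identity genes were slightly higher in 15 of 19, with a median of 0.06, led by Siglecf at 11.5 and 6.79 CPM. Markers of other cell types differed as well. The median was -0.30 for 8 measured monocyte markers (2 past 1.5-fold lower) and -0.50 for 6 interstitial macrophage markers (3 past it), 2 of 2 measured dendritic cell markers were past it downward, and 2 of 3 neutrophil markers upward. Their part in the ratios of the other lists was not tested. All 9 measured mitochondrially encoded genes were higher with Reg3g, with a median of 0.35, and the median mitochondrial share of a Cxcl3-high cell was 0.456% and 0.374%. That share and depth, 7450 and 6357 UMIs, moved with the treatment, and their part in these ratios was not tested.

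Against PBS, Cxcl3-high cells of the LPS library differed widely. Of 7844 genes, 473 (6.03%) were at least 2-fold higher and 1130 (14.4%) at least 2-fold lower than in PBS gated cells. With the median log2 ratio of all genes, -0.23, set to 0 the counts were 669 and 787. For Cxcl3-high cells of LPS with Reg3g, against the same PBS cells, 432 (5.53%) of 7818 genes were higher and 1029 (13.2%) lower, and as the control cells are shared the comparisons are not independent.

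The highest ratios belonged to acute-phase and antimicrobial genes. Lcn2, which binds bacterial iron carriers, was at 1767 CPM in LPS Cxcl3-high cells, against 0.570 CPM with PBS (log2 ratio 11.60, 10.85 to 12.47). Saa3, an acute-phase protein, was at 955 CPM, against 0.529 CPM, and it was at 8779 CPM in monocyte-gated cells of the same library. Acod1, which makes itaconate, was at 166 CPM, against 0.244 CPM. Serpina3g had a log2 ratio of 9.40, and Serpina3f, with no UMI in PBS cells, was higher by at least 9.27 on the log2 scale against a floor of 3 counts in that library. Among 25 genes induced by NF-kB or LPS, 19 passed 2-fold upward and 1 downward, with a median of 1.76, and of 23 interferon response genes 18 were higher and 1 lower, with a median of 2.51.

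The lowest ratios belonged to genes of the resting cell. Cpne5, a calcium-dependent membrane-binding protein, was at 4.83 CPM in LPS Cxcl3-high cells, against 180 CPM with PBS (log2 ratio -5.22, -5.72 to -4.75). Epcam, an adhesion molecule shared with epithelia, and the polarity protein gene Patj had log2 ratios of -4.65 and -4.45. Spp1, or osteopontin, was at 26.1 CPM, against 506 CPM, and Prr5l at 3.00 CPM, against 55.4 CPM. Among 19 identity genes 11 passed 2-fold downward and 1 upward, with a median of -1.34. The 9 mitochondrially encoded genes were lower as well, 5 of them past 2-fold, with a median of -1.13, and their part in the other ratios was not tested. The higher gene was Fabp4, a fatty acid carrier, at 1152 CPM, against 549 CPM.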

How the data were processed

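Single-cell RNA was read with a droplet 3′ kit in 3 libraries, 1 per group. The deposited values are UMI counts per gene and barcode in filtered matrices; the submitters' processing notes name Cell Ranger 9.0.1, bcl2fastq 5.0.1, Seurat 4.4.0 and mm10, and the whole-number counts were used as deposited. Of 55357 features, 52081 (94.1%) were matched to GENCODE M21. How the authors treated doublets is not recorded in the labels, and removing cells with high scanpy doublet scores (417, 902 and 287 cells in the order LPS with Reg3g, LPS and PBS) was an alternative.

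UMIs were summed over the cells of each set and library and given as CPM. Genes entered a comparison at 10 CPM or more in 1 of its sets. Log2 ratios have 95% exact conditional binomial intervals, CPM exact Poisson intervals and shares Clopper-Pearson intervals. All cover counting error only. With 1 library per group no test was possible, and a gene was called by fold: 2-fold, or 1.5-fold between LPS with Reg3g and LPS. A ratio against 0 UMIs used a floor of 3 counts per library. Detection was compared after thinning to 2000 UMIs. The log2 ratios and their intervals were checked on simulated Poisson counts, and the fold calls were not.

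Genes were named by rule: the markers, Reg3g and Extl3; at 50 CPM or more in the higher set, the 10 largest differences each way (5 each way against PBS); and up to 4 genes of each list by size. Left out of the largest differences were gate, ribosomal, mitochondrial, haemoglobin, immunoglobulin and unnamed genes, and genes under 10% of their level in monocyte-gated or lymphoid cells. Pparg, Gpr183 and Fabp4, and Nlrp3 against Tnf-positive cells, were chosen after their values were seen. One gene that the rule names is not reported here. The cells, markers and gene lists were chosen with earlier results of these data known. Python 3.11.15, numpy 2.4.6, scipy 1.17.1, pandas 2.3.3, scanpy 1.11.5 and matplotlib 3.10.9 were used.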

Additional observations from a re-analysis of the deposited data

Results flagged for a closer look

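For 2 genes the log2 ratio of LPS with Reg3g over LPS had opposite signs in Cxcl3-high and in other gated cells, with neither interval including 0; the difference was not tested. Ccl9 was at 0.0881 (0.0509 to 0.125) in Cxcl3-high cells and -0.115 (-0.174 to -0.0563) in the other gated cells. Cxcl13 was at -1.075 (-1.52 to -0.641) in Cxcl3-high cells and 1.207 (1.03 to 1.38) in the other gated cells, where 5 cells held 94.6% of its UMIs with Reg3g and 88.7% with LPS.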

How the results depend on the processing

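No paired analysis was possible because each group was 1 library. The share of Cxcl3-high cells among gated cells, with Reg3g and with LPS, was 47.2% and 44.3% with an alveolar gate of 3 genes and 56.5% and 55.1% with 6 genes. It was 60.7% and 61.9% at 3 Cxcl3 UMIs, 38.9% and 32.3% at 10, 60.3% and 65.0% at 5 per 10000, and 56.9% and 61.3% in cells of 4000 to 12000 UMIs. Without the Fstl1 and Tnf gates it was 69.0% and 69.1%, and with at least 1000 genes and 10% mitochondrial UMIs the LPS share was 54.2%. Genes higher than in other gated cells numbered 31 at 3 Cxcl3 UMIs, 8 at 10, 30 at 5 per 10000 and 32 without the Fstl1 and Tnf gates. Lower genes numbered 240 with a gate of 3 genes, 112 after thinning and 107 without doublet scores. Genes higher with Reg3g than with LPS numbered 88 at 10 Cxcl3 UMIs and 26 without the Fstl1 and Tnf gates, and thinning gave 299 higher and 297 lower. A floor of 50 CPM gave 5 higher and 22 lower against other gated cells, 6 and 13 for Reg3g, and 255 and 488 for LPS against PBS. No floor gave 276 and 920, 3460 and 2886, and 6158 and 3215. The Cxcl13 log2 ratio of Cxcl3-high to other gated cells in LPS reversed to 1.09 (0.78 to 1.42) at 3 Cxcl3 UMIs, against -1.95 at 5. The cause of these shifts was not tested. Over the 14 alternatives that can change a ratio, which leaves out the CPM floors, the named genes kept their sign in 641 of 644 values against other gated cells (Cxcl13 and Ear6 changed), 335 of 336 for Reg3g (Car4 changed) and 210 of 210 against PBS. Shares are not touched by scaling or floors and were not recomputed for them. The thinned alternative kept the sets drawn from unthinned counts, so it gave no new share. Counted after thinning, at least 5 Cxcl3 UMIs were held by 30.2% of gated cells with Reg3g and 24.7% with LPS.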
